A study of Mus musculus with 36 samples.

Results

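Chemokines are small secreted proteins that draw leukocytes along a gradient, and their receptors are membrane proteins that decide which cells can follow it. Described here are 26 genes of this family, 17 ligands and 9 receptors, out of 988 genes of a targeted mouse panel. They come from the 27 genes whose symbol begins with Ccl, Ccr, Cxcl, Cxcr, Xcl, Xcr or Cx3c, after 12 of 39 such genes were set aside: the neutrophil attractants and their receptor (Cxcl1, Cxcl2, Cxcl3, Cxcl5 and Cxcr2), Cxcl13, Ccl19, Ccl5, Xcl1, Ccr3, Ccr4 and Ccr8. The rule itself uses no measured value, and all 26 described were found in both count tables.

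The study concerns mast cells in colon tumours and read a targeted RNA panel for immune and cancer genes (QIAseq Mouse Immuno-Oncology) in 9 groups of C57BL/6 samples. Wild-type mice were set beside Kit "sash" mice (cKitw-sh), which carry a regulatory mutation of Kit, the stem cell factor receptor, and are used as a strain that lacks mast cells. The mutation also acts in other cells that use Kit. Colon tumours were taken from mice of both genotypes (n = 5 each) aged 32 weeks, 18 weeks after the last of 6 intraperitoneal injections of the carcinogen azoxymethane (AOM) at 10 mg/kg per week. Colon samples labelled as preneoplastic lesions came from wild-type (n = 3) and sash (n = 3) mice aged 14 weeks, given 3 AOM injections over 3 weeks and killed after 3 more weeks. A second set of wild-type lesions of the same age comprised AOM alone (n = 3, the same labelled treatment), AOM given at the same time as the mast cell stabiliser cromolyn (n = 3), and AOM followed by 3 weeks of cromolyn (n = 3). All 7 of these groups received AOM, so no untreated colon stands beside them. The last 2 groups were tumours of MC-38, a C57BL/6 colon carcinoma line, in wild-type (4 of 5 samples analysed) and sash (5 of 6) hosts. Here 1 cell line was used, and the age of the hosts is not in the labels. The labels do not say that each sample came from its own animal, so the p-values measure the spread between these samples only.

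Chemokines bind G protein-coupled receptors, and most ligands share a receptor with others. Ccl2 and Ccl7 draw monocytes through CCR2, Ccl3 and Ccl4 draw monocytes, macrophages and T cells, and Cxcl9, Cxcl10 and Cxcl11 are interferon-induced ligands of CXCR3 on activated T and NK cells. In the gut, CCR6 marks B cells and type 3 lymphoid cells, CCR9 and its ligand Ccl25 direct lymphocytes to the small intestine, CCR10 marks plasma cells that make IgA, CXCR5 guides B cells into lymphoid follicles, and CCR7 guides T cells and dendritic cells into the T cell zone. Cxcl12 is made by stromal cells and holds CXCR4-bearing cells in place.

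The upstream sequences of 18 of the 26 members were in the RefSeq promoter table (GRCm38.p6). Shown are 4, picked from the members called between stages below. Cxcr3, Cx3cl1 and Cxcl15 were also called between stages and are not shown, and their stretches held 0 matches to the motifs searched. Each is the 250 bases before the annotated start, read 5′ to 3′ on the gene's own strand. In the first pair the capitals mark matches to the motifs searched.
Cxcl10 (chr5:92348890-92349139, minus strand): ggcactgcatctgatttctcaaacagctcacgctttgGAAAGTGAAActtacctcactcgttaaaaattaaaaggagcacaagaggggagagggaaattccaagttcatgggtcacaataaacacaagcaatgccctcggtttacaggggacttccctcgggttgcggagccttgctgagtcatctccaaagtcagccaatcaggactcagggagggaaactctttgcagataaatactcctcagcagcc
Ccr6 (chr17:8235793-8236042, plus strand): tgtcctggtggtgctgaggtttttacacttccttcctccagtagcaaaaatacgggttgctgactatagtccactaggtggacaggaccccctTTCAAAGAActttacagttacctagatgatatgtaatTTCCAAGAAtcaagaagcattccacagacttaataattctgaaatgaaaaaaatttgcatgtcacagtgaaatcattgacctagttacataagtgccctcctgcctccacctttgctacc
In the second pair the capitals mark CpG dinucleotides.
Ccl3 (chr11:83649379-83649628, minus strand): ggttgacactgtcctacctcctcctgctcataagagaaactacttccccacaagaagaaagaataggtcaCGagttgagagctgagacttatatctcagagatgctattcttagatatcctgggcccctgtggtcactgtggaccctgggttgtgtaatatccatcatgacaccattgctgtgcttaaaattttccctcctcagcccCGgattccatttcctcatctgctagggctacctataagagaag
Cxcl12 (chr6:117168285-117168534, plus strand): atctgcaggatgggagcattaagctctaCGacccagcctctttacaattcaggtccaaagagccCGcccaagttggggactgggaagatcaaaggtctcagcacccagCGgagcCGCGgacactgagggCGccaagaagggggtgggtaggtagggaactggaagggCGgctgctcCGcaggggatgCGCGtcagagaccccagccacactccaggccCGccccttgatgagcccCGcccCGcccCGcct
The Cxcl10 stretch held the core of the interferon-stimulated response element, GAAANNGAAA, 213 to 204 bases before the start. That core, on either strand, occurred in 2 of the 23 promoters of the 18 genes (Cxcl10 and Cxcl14) and in 2.98% of all 32851 promoters of the table. The gamma-activated site, TTCNNNGAA, occurred at 2 places in the Ccr6 stretch, 157 to 149 and 120 to 112 bases before the start. With Ccl17 and Cxcl14 it was in 3 of the 23 promoters, against 7.02% of all promoters. The other annotated Ccr6 promoter, not shown, held 0 matches. The NF-kappaB form GGGNNTTTCC was in none of the 23 and in 1.41% of all promoters. Only this spelling was searched, so sites spelled otherwise were not counted and may be present in the stretches shown. None of the matches overlapped another. The Cxcl12 stretch had 14 CpG dinucleotides and 64.4% G and C, the Ccl3 stretch 2 and 46.8%, and the median of all promoters was 6 and 52.4%. A match is a string of letters and was not tested as a binding site.

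The AOM libraries held 449880 to 1264354 counts and the MC-38 libraries 480136 to 986415, so that 1 count stood for 0.763 to 2.37 CPM, that is counts relative to the scaled library total. The 26 members accounted for 0.196% to 0.836% of an AOM library's counts, and for 4.81% to 7.72% in MC-38 libraries. The panel amplifies 1 short stretch of each transcript, so levels are compared between samples and never between genes. Kit ranged from 334 to 509 CPM over the wild-type lesions and from 114 to 143 CPM over the sash lesions. In tumours the ranges met, with 95.3 to 476 CPM for wild type and 49.7 to 99.3 CPM for sash. The amplicon reads expression and does not cover the mutation. Epcam, an epithelial surface protein, was at 9591 to 34760 CPM in the AOM libraries and at 0 to 3.32 CPM in the MC-38 tumours, although MC-38 is labelled a colon carcinoma line. Wild-type tumours 2 and 4 stood apart in 1 marker gene each. Tumour 2 held 249 CPM of the B cell gene Ms4a1 (the other 4 held 4.14 to 7.39 CPM). Tumour 4 held 14905 CPM of the surface colonocyte gene Car4 (230.0 to 3868 CPM in the others). Wild-type tumour 5 stood apart in the members Ccl11 and Cxcl12. The 2 count tables were scaled separately, so no test crosses them.

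Tumours differed from lesions in more members than any other contrast. Ccl2, Ccl3 and Ccl4 were higher and Cxcl12 was lower in tumours than in lesions in both genotypes, by edgeR's quasi-likelihood test at an adjusted p below 0.05. In wild type 6 of the 21 members tested passed (3 higher, 3 lower) beside 37.0% of all 848 genes tested, and in sash 9 of 21 passed (5 higher, 4 lower) beside 47.5% of all genes. Groups without overlap numbered 2 members in wild type and 9 in sash, beside 28.4% and 52.6% of all genes. In both genotypes the members' share was no larger than that of all genes. The 3 members higher in wild type were also higher in sash (100% of 3 and 60% of 5), and 1 of the lower members was shared (33.3% of 3 and 25% of 4). Shared calls were not counted over all genes, so this sharing is not read as particular to the members. Tumours and lesions also differ in age, in the number of injections and in the time since the last one, which cannot be told apart from stage. In such bulk samples fewer cells of a type and less RNA per cell cannot be told apart either.

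**Figure D1:**
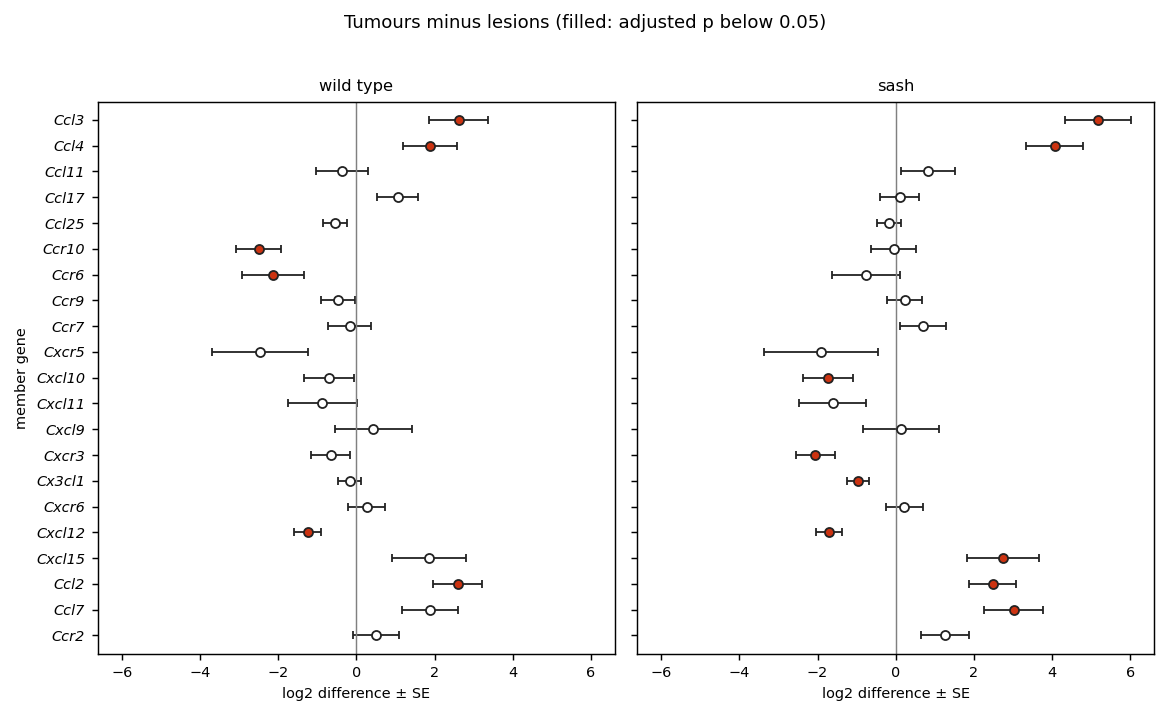
Differences between tumours and lesions for the 21 members tested, in wild type (left) and sash (right). The x axis is the log2 difference, tumours minus lesions, with its SE, each row is 1 gene, and filled points passed at an adjusted p below 0.05. Ccl3 lies furthest to the right in sash, at 5.17, and Ccr10 lies at -2.50 in wild type.

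Among the monocyte attractants, Ccl2 measured 45.98, 53.02 and 73.5 CPM over wild-type lesions 1 to 3 and 756, 313, 326, 52.7 and 345 CPM over wild-type tumours 1 to 5. Sash lesions held 107, 167 and 172 CPM and sash tumours 419.5, 750.1, 1506, 702 and 831 CPM. All sash tumours lay above all sash lesions, while wild-type tumour 4 alone fell inside the range of the wild-type lesions. The log2 difference was 2.59 (SE 0.62, adjusted p = 0.00582) in wild type and 2.48 (SE 0.60, adjusted p = 0.00389) in sash. Ccl7, which also binds CCR2, was at 258, 215 and 129 CPM in the wild-type lesions against 717, 737, 482, 145 and 1666 CPM in wild-type tumours. In sash it was at 107, 299 and 235 CPM in lesions and 709, 4543, 1618, 896 and 975 CPM in tumours. Tumour 2 of the sash group was the highest of the AOM libraries, and every sash tumour exceeded every sash lesion. Ccl7 passed in sash, at 3.02 (SE 0.76, adjusted p = 0.00467), and in wild type it was at 1.87 (SE 0.72, adjusted p = 0.0513). Their receptor Ccr2 passed in neither genotype (0.50 ± 0.59 in wild type and 1.26 ± 0.62 in sash, log2 ± SE).

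Ccl3 and Ccl4, the macrophage inflammatory proteins, were also higher in tumours of both genotypes. Ccl3 was at 44.2, 15.1 and 12.2 CPM in the wild-type lesions against 186, 109.9, 115, 36.2 and 278 CPM in wild-type tumours. In sash, lesions held 3.58, 27.8 and 12.97 CPM and tumours 294, 248, 586, 1228 and 403 CPM. Only tumour 4 of the wild-type group lay within the lesion range, and in sash the groups were far apart. The difference was 2.62 (SE 0.75, adjusted p = 0.0152) in wild type and 5.17 (SE 0.85, adjusted p = 0.000228) in sash. Ccl4 was at 12.4, 15.1 and 11.3 CPM in the wild-type lesions against 70.6, 59.2, 26.2, 9.30 and 79.2 CPM in wild-type tumours. In sash it was at 8.95, 8.34 and 20.04 CPM in lesions against 85.4, 126, 264, 434 and 184 CPM in sash tumours. Wild-type tumour 4 was again the lowest tumour, here below all wild-type lesions, and the sash groups were again apart. The difference was 1.88 (SE 0.69, adjusted p = 0.0426) in wild type and 4.07 (SE 0.74, adjusted p = 0.000505) in sash.

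Wild-type tumour 4 was thus the lowest tumour for Ccl2, Ccl7, Ccl3 and Ccl4 together, and it is the library with the high Car4 level. Without wild-type tumours 2 and 4 the differences in wild type were 2.99 for Ccl2, 3.04 for Ccl3, 2.14 for Ccl4 and 2.23 for Ccl7, with adjusted p of 0.00014, 0.00308, 0.0119 and 0.0147. Leaving out tumour 4, the lowest for all 4 genes, widens these differences by construction, and the choice was made after seeing the data. Leaving out wild-type lesion 2 or 3 ended the call of Ccl3 in wild type (adjusted p = 0.0587 and 0.0615). The call of Ccl4 in wild type ended in 7 of 16 single leave-outs (wild-type lesions 1 to 3, wild-type tumours 1, 2 and 5, and sash tumour 5, which shares the spread), with an adjusted p up to 0.114, and with scaling by Rpl13a (adjusted p = 0.106). The calls of Ccl2, Ccl3, Ccl4 and Ccl7 in sash and of Ccl2 in wild type kept their side in all 16. Markers of myeloid cells were also higher in tumours. The 4 neutrophil genes on the panel summed to 6.06 to 8.84 CPM in wild-type lesions and 62.0 to 257 CPM in wild-type tumours, and to 7.16 to 15.3 and 367 to 735 CPM in sash, with Mpo at 0 in all lesions. The 7 macrophage and monocyte genes summed to 1154 to 1406 and 1402 to 3079 CPM in wild type and to 1237 to 1746 and 2719 to 3724 CPM in sash, with Marco at 0 throughout. Of 6 of these tested, 2 were higher and 1 lower in wild type and 3 were higher and 1 lower in sash. Their part in the chemokine differences was not tested.

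**Figure D2:**
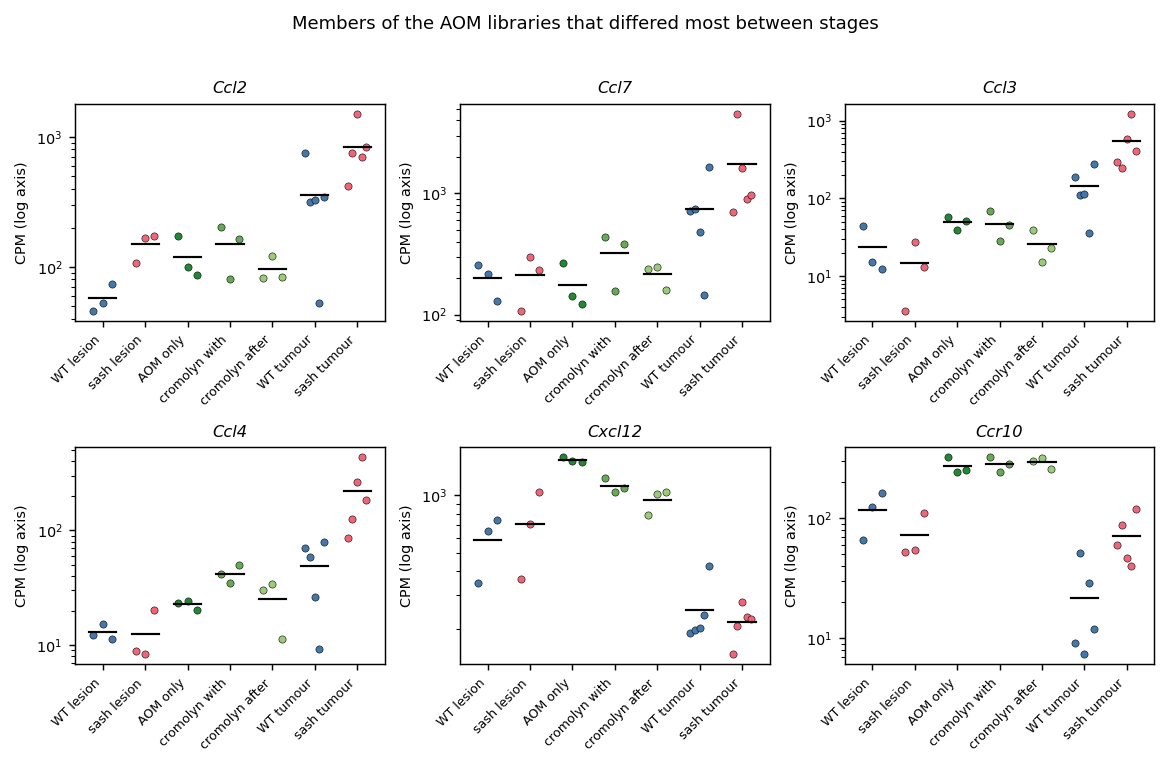
Levels of Ccl2, Ccl7, Ccl3, Ccl4, Cxcl12 and Ccr10 in the 25 AOM libraries, in CPM on a log axis. Points are single libraries and bars the group means, WT stands for wild type, and cromolyn with or after refers to its timing against AOM. Wild-type tumour 4 is the lowest tumour for the first 4 genes, and the AOM-only group is the highest for Cxcl12.

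Cxcl12, the stromal ligand of CXCR4, was lower in tumours. It was at 347, 647 and 745 CPM in the wild-type lesions against 191, 197, 203, 238 and 424 CPM in wild-type tumours. In sash mice it was at 363, 707 and 1039.8 CPM in lesions against 148, 208, 276, 231 and 226 CPM in sash tumours. The sash groups did not overlap, and in wild type tumour 5 alone exceeded the lowest lesion. The difference was -1.25 (SE 0.34, adjusted p = 0.0121) in wild type and -1.71 (SE 0.34, adjusted p = 0.00101) in sash. The wild-type call ended without wild-type lesion 3 (adjusted p = 0.0607) and with scaling by Rpl13a (-1.45, adjusted p = 0.0722). The 3 stromal genes on the panel (Col3a1, Pdgfrb and Fap) summed to 1675 to 5936 CPM in wild-type lesions and 2838 to 11466 CPM in wild-type tumours, with medians of 3322 and 6546 CPM. In sash they summed to 1666 to 8591 CPM in lesions and 4585 to 7270 CPM in tumours. In both genotypes Pdgfrb was called higher (1.30 and 1.26) and Fap lower (-1.21 and -2.16), and their part in the Cxcl12 values was not tested. Cx3cl1, the membrane-bound ligand of CX3CR1, was at 1258, 1359 and 925 CPM in the sash lesions against 857, 649.9, 409, 525 and 588 CPM in sash tumours, apart in every library, at -0.97 (SE 0.28, adjusted p = 0.0117). Without sash lesion 2 its adjusted p was 0.0554, and with scaling by Rpl13a 0.0861. In wild type it was at -0.18 (SE 0.29, adjusted p = 0.662).

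On the CXCR3 axis the receptor and 1 ligand were lower in sash tumours, while the other ligands were not called. Cxcr3 was at 26.8, 23.6 and 18.9 CPM in the sash lesions against 2.29, 5.80, 5.39, 4.98 and 9.15 CPM in sash tumours, at -2.05 (SE 0.51, adjusted p = 0.00427). Cxcl10 was at 490.4, 652 and 740.4 CPM in the sash lesions against 270.0, 193, 255, 70.6 and 162 CPM in sash tumours. All sash tumours lay below all sash lesions for both genes. The difference of Cxcl10 was -1.73 (SE 0.63, adjusted p = 0.0342), and its call ended in 6 of 16 leave-outs (sash lesions 1 to 3 and sash tumours 2, 4 and 5), with an adjusted p up to 0.0880. It ended too with library totals and with scaling by Rpl13a (adjusted p = 0.0587 and 0.0531). Cxcl9, the ligand induced by interferon-gamma in particular, was at 0.13 ± 0.97 (log2 ± SE) in sash and 0.43 ± 0.98 in wild type, and Cxcl11 was at -1.61 ± 0.86 and -0.87 ± 0.89. Cxcl11 had only 22 counts over the sash tumours and 23 over the sash lesions, a ratio of 0.373 (exact 95% interval 0.198 to 0.700, counting error only). Wild-type tumours and lesions had 21 and 19 counts of it, a ratio of 0.604 (0.309 to 1.19). In wild type Cxcl10 was at -0.71 (SE 0.64, adjusted p = 0.398) and Cxcr3 at -0.66 (SE 0.51, adjusted p = 0.311). The 9 T cell genes summed to 350.2 to 516 CPM in sash lesions and 200.1 to 284 CPM in sash tumours, and 1 of 8 tested was called lower. In wild type they summed to 438 to 1027 CPM in lesions and 105.0 to 589 CPM in tumours, and 4 of 8 were called lower. Their part in the Cxcr3 difference was not tested.

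Of the mucosal receptors, Ccr10 and Ccr6 were lower in wild-type tumours than in wild-type lesions. Ccr10 was at 65.4, 123 and 162 CPM in the wild-type lesions against 9.04, 50.7, 7.35, 28.9 and 11.8 CPM in wild-type tumours, without overlap, at -2.50 (SE 0.58, adjusted p = 0.00438). Sash lesions held 51.9, 54.2 and 109.6 CPM and sash tumours 59.5, 86.9, 46.2, 39.9 and 119 CPM, with overlapping ranges, at -0.05 (SE 0.57, adjusted p = 0.946). The difference between these 2 effects is given with the genotype comparisons. Ccr6 was at 131, 39.4 and 61.2 CPM in the wild-type lesions against 4.93, 64.8, 5.25, 7.24 and 9.45 CPM in wild-type tumours. Tumour 2 alone reached the lesion range. Its difference was -2.14 (SE 0.79, adjusted p = 0.0457), and the call ended in 13 of 16 leave-outs, that is for every library except wild-type tumour 2, sash tumour 5 and sash lesion 1, with an adjusted p up to 0.222. It also ended with library totals and with scaling by Rpl13a (adjusted p = 0.0791 and 0.141). Cxcr5 was at 246, 72.7 and 47.1 CPM in the wild-type lesions against 0.821, 109.9, 2.10, 0 and 2.36 CPM in wild-type tumours, at -2.47 (SE 1.22, adjusted p = 0.121). Again tumour 2 alone was high. Without that library the Cxcr5 difference was -6.48 with an adjusted p of 0.000137, and leaving out the highest tumour widens it by construction. The 5 B cell genes of the panel summed to 540 to 2113 CPM in wild-type lesions and 14.7 to 486 CPM in wild-type tumours, tumour 2 being the highest in Ms4a1, and 4 of 4 tested were called lower, as were 4 of 8 T cell genes. Their part in the receptor differences was not tested.

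Cxcl15 is a CXC ligand best known from lung epithelium, and it passed in sash. It was at 3.58, 2.78 and 0 CPM in the sash lesions against 7.63, 36.4, 13.9, 3.32 and 8.24 CPM in sash tumours, with sash tumour 2 the highest, at 2.74 (SE 0.91, adjusted p = 0.0225). Sash tumour 4 lay below the highest sash lesion. Without sash lesion 2 or 3 the adjusted p was 0.0537 and 0.0870. In wild type it was at 1.77, 1.51 and 1.88 CPM in lesions, or 1 to 2 counts a library, and at 7.39, 5.64, 11.5, 2.07 and 7.09 CPM in tumours, without overlap, at 1.86 (SE 0.94, adjusted p = 0.13). The remaining members tested at this contrast, Ccl11, Ccl17, Ccl25, Ccr2, Ccr7, Ccr9 and Cxcr6, passed in neither genotype, and 5 members had too few counts to be tested.

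The wild-type lesions and the AOM-only group had the same labelled genotype, age and treatment and were compared to show how far 2 such sets differ. Their depth did not overlap, at 616745 to 1149069 counts a library in the wild-type lesions and 470661 to 544886 in the AOM-only group. The part of depth in the differences was not tested. Cxcl12 and Ccr10 were lower and Ccr7 and Cxcr5 higher in the wild-type lesions: 4 of 18 members tested passed, beside 15.6% of all 762 genes, and 7 did not overlap, beside 40.6%. Cxcl12 was at 1572, 1506 and 1483 CPM in the AOM-only group, above every other AOM library, and the difference was -1.44 (SE 0.25, adjusted p = 0.00876). Ccr10 was at 320.1, 243 and 251 CPM there, at -1.25 (SE 0.32, adjusted p = 0.0319). Ccr7 was at 86.6, 27.3 and 39.6 CPM in the wild-type lesions and 4.67, 9.40 and 10.1 CPM in the AOM-only group, at 2.55 (SE 0.57, adjusted p = 0.021). Cxcr5 was at 23.4, 16.9 and 16.2 CPM in the AOM-only group, at 2.63 (SE 0.65, adjusted p = 0.0289). Without AOM-only library 1 none of the 4 passed (adjusted p from 0.0665 to 0.166), and Ccr7, Cxcr5 and Ccr10 also lost their call without AOM-only library 2 or 3 (adjusted p from 0.0724 to 0.113). Ccr10 lost it without wild-type lesion 2 as well (adjusted p = 0.0834). In the fit over all AOM libraries Cxcr5 and Ccr10 were not called (adjusted p = 0.205 and 0.119). Ccl2, Cx3cl1, Ccl3 and Ccl4 did not pass, at -1.09 ± 0.35, -0.60 ± 0.23, -1.15 ± 0.50 and -0.86 ± 0.38 (log2 ± SE). Stromal genes summed to 11054 to 12750 CPM in the AOM-only group, above the 1675 to 5936 CPM of the wild-type lesions, and B cell genes to 120.4 to 294 CPM, below their 540 to 2113 CPM. Their part in the differences was not tested.

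When the AOM-only group took the place of the wild-type lesions, wild-type tumours still differed in Ccr10 (-3.72, adjusted p = 0.00295) and Cxcl12 (-2.66, adjusted p = 0.00103). Ccl2, Ccl3, Ccl4 and Ccr6 kept their direction at 1.52, 1.49, 1.05 and -1.27 and lost their call, with adjusted p of 0.123, 0.0888, 0.252 and 0.302. Cxcr5 changed sign, to 0.22. The calls of these 4 members in wild type thus depended on which set of lesions was the reference.

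Between sash and wild-type mice no member passed in tumours, lesions or MC-38 tumours in edgeR's fit of the 2 groups, while other fits called some. In tumours Ccl4 and Ccl3 were nonetheless the members of smallest p: 0 of 16 tested passed, beside 0.00% of all 797 genes, with 4 members at an unadjusted p below 0.05 (19.9% of all genes) and 3 called by DESeq2 (Ccl4, Ccl3 and Ccr10) among 82 genes it called in all. In 1 fit over all AOM libraries the same 3 members were called (adjusted p = 0.00717 for Ccl4, 0.014 for Ccl3 and 0.0106 for Ccr10), among 88 genes. Ccl4 in all 5 sash tumours (85.4, 126, 264, 434 and 184 CPM) exceeded all 5 wild-type tumours (70.6, 59.2, 26.2, 9.30 and 79.2 CPM), at 2.14 (SE 0.59, adjusted p = 0.0798). Of the 16 members tested it was the 1 whose groups did not overlap, beside 5.40% of all genes. Ccl3 exceeded all wild-type tumours in 4 of 5 sash tumours, at 1.91 (SE 0.56, adjusted p = 0.0942). Ccr10 did so in 3 of 5, at 1.69 (SE 0.57, adjusted p = 0.129). Ccl2 was at 1.21 (SE 0.54, adjusted p = 0.234), Ccl7 at 1.19 (SE 0.65, adjusted p = 0.336) and Cx3cl1 at -0.48 (SE 0.26, adjusted p = 0.336). Single leave-outs moved Ccl7 from 0.46 (without sash tumour 2) to 1.70 (without wild-type tumour 5), Ccl2 from 0.90 to 1.67 and Cx3cl1 from -0.63 to -0.26. Ccl25 and Ccr9 differed by 0.37 ± 0.27 and 0.31 ± 0.36 (log2 ± SE). The members' median difference was 0.29 and that of all genes -0.04. Wild-type tumours 2 and 4 were the 2 highest of their group for Ccr10, so that leaving them out, a choice made after seeing the data, widens its difference by construction (2.90, adjusted p = 0.0261). Without them Ccl4 and Ccl3 moved to adjusted p of 0.168 and 0.227. The 4 neutrophil genes summed to 62.0 to 257 CPM in wild-type and 367 to 735 CPM in sash tumours, none passing, and their part in these values was not tested.

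**Figure D3:**
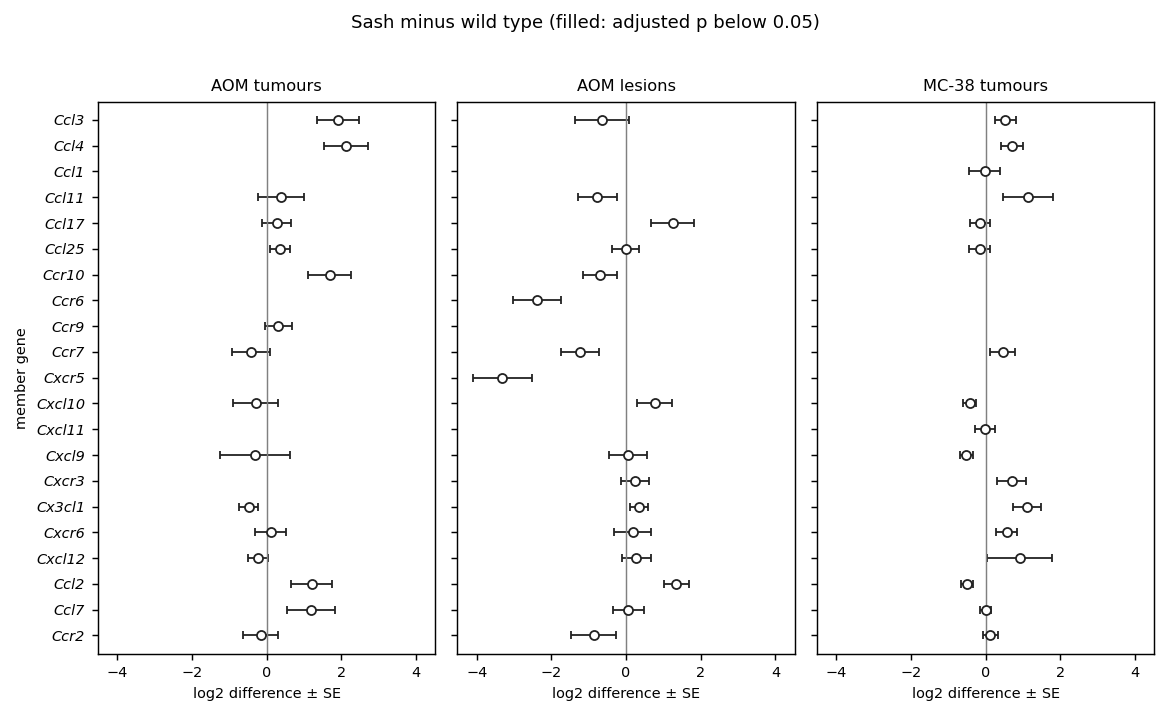
Differences between sash and wild type in tumours, lesions and MC-38 tumours, as log2 values with their SE on the x axis and 1 gene a row. Genes with too few counts in a comparison have no point there. No point is filled, since none passed, and Ccl3 and Ccl4 lie at 1.91 and 2.14 in tumours.

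In lesions, the lymphocyte receptors Cxcr5, Ccr6 and Ccr7 were lower and Ccl2 was higher in all 3 sash libraries than in any wild-type one. In the unpaired fit 0 of 17 members passed, beside 2.84% of all 775 genes, with 4 members at an unadjusted p below 0.05 (19.1% of all genes). DESeq2 called 3 (Cxcr5, Ccl2 and Ccr6) among 70 genes in all. Scaling by Rpl13a and the fit without the low-count filter each called Cxcr5 alone of the members (adjusted p = 0.00534 and 0.0406), among 17 and 36 genes. The labels do not say that replicate numbers pair the samples, but same-numbered libraries of these 2 groups correlated in their deviations. A pairing is thus read from the same data that it is used to test. With the number as a block 3 members were called among 84 genes in all, against 22 without it. They were Cxcr5 at -3.17 (adjusted p = 0.000399), Ccr6 at -2.38 (adjusted p = 0.00282) and Ccl2 at 1.35 (adjusted p = 0.0135). Cxcr5 was at 246, 72.7 and 47.1 CPM in wild-type and 23.3, 11.1 and 4.72 CPM in sash lesions, at -3.31 (SE 0.80, adjusted p = 0.0688) without the block. Ccr6 was at 131, 39.4 and 61.2 CPM and 28.6, 8.34 and 9.43 CPM, at -2.39 (SE 0.65, adjusted p = 0.0914), and Ccr7 at 86.6, 27.3 and 39.6 CPM and 17.9, 22.2 and 24.8 CPM, at -1.24 (SE 0.51, adjusted p = 0.228). Ccl2 was at 45.98, 53.02 and 73.5 CPM and 107, 167 and 172 CPM, at 1.35 (SE 0.35, adjusted p = 0.079). These 4 of 17 members did not overlap between genotypes, a share no larger than the 24.3% of all genes. Ccl17, a CCR4 ligand, was at 1.25 ± 0.57, Cxcl10 at 0.77 ± 0.47, Ccr10 at -0.69 ± 0.45 and Ccl11, the eosinophil attractant eotaxin, at -0.77 ± 0.52 (log2 ± SE), none passing.

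B cell genes moved with these receptors. Their sum was 540 to 2113 CPM in wild-type and 35.4 to 183 CPM in sash lesions, and 3 of 4 tested were called lower in sash. Their part in the receptor values was not tested. Single leave-outs gave 0 to 2 called members: Cxcr5 and Ccl2 passed without wild-type lesion 3 (adjusted p = 0.0244 and 0.0492), Ccr6 without sash lesion 1 (adjusted p = 0.0482) and Cxcl10 without wild-type lesion 1 (1.55, adjusted p = 0.0461).

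**Figure D4:**
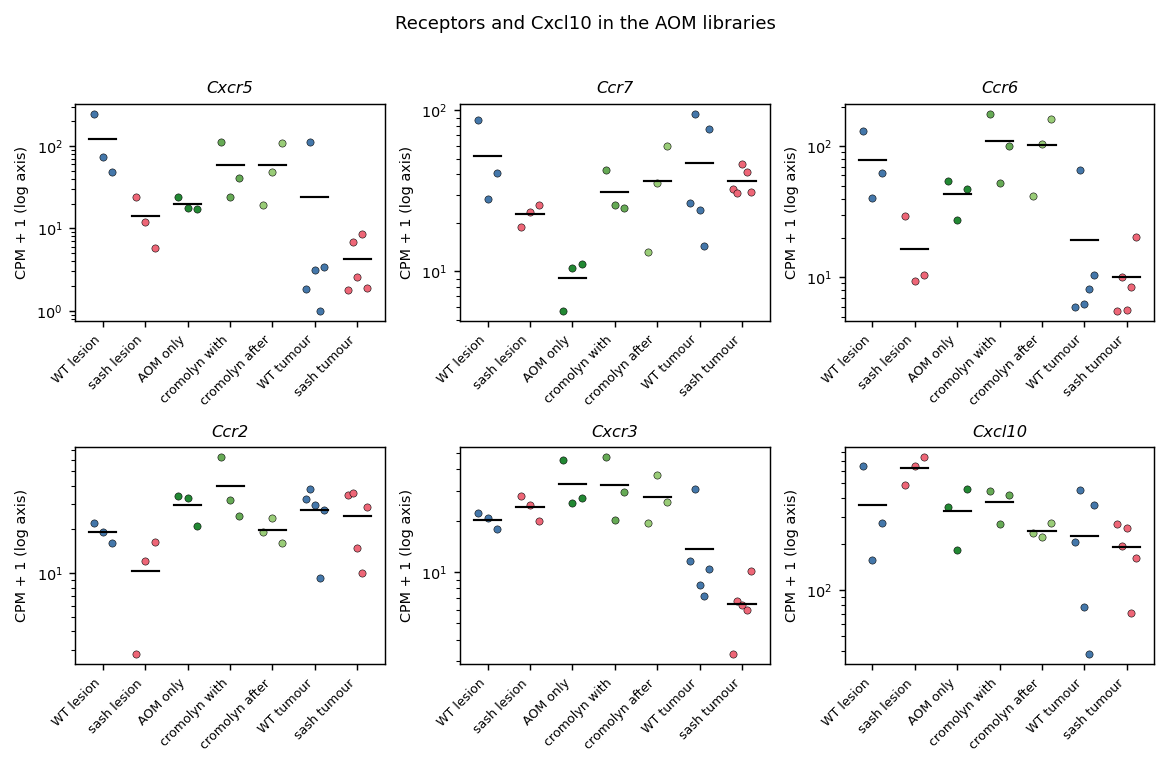
Levels of Cxcr5, Ccr7, Ccr6, Ccr2, Cxcr3 and Cxcl10 in the 25 AOM libraries, as CPM + 1 on a log axis. Points are single libraries and bars the group means, and WT stands for wild type. Cxcr5 in wild-type tumours ranges from 0 to 109.9 CPM, with tumour 2 alone near the lesions.

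The genotype effect was also compared between stages. None of 21 members passed, beside 0.00% of all 848 genes, with 3 members at an unadjusted p below 0.05 (15.1% of all genes) and 0 called by DESeq2. The widest differences of effects (tumours minus lesions) were those of Ccr10 at 2.45 (SE 0.83, adjusted p = 0.209), Ccl3 at 2.55 (SE 1.03, adjusted p = 0.277) and Ccl4 at 2.19 (SE 0.94, adjusted p = 0.294). Cx3cl1 and Cxcr3 were at -0.79 ± 0.41 and -1.39 ± 0.73, Ccl17 at -0.95 ± 0.72, Ccl11 at 1.19 ± 0.95 and Ccl7 at 1.14 ± 0.95 (log2 ± SE). The Ccr10 effect was thus not shown to differ between stages, although the call was made in wild type and not in sash. Without wild-type tumours 2 and 4, the 2 highest of their group for Ccr10, it was 3.60 with an adjusted p of 0.0390. Leaving them out widens it by construction.

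In MC-38 tumours, Ccl2 was lower in every sash host than in any wild-type host, and the CXCR3 ligands Cxcl9 and Cxcl10 had their means on the same side. None of 17 members passed, beside 1.26% of all 714 genes, with 5 at an unadjusted p below 0.05 (21.8% of all genes) and 0 called by DESeq2. Ccl2 was at 22221, 20852, 22564 and 20429 CPM in wild-type hosts and 17115, 10935, 15791, 13685 and 19862 CPM in sash hosts, at -0.49 (SE 0.16, adjusted p = 0.137). It was the 1 member without overlap, beside 8.68% of all genes. Cxcl9 was at 4133, 4167, 5294 and 3989 CPM and 4357, 2129.5, 3177, 3153 and 2777 CPM, below all wild-type hosts in 4 of 5, at -0.51 (SE 0.18, adjusted p = 0.156). Cxcl10 was at -0.42 (SE 0.18, adjusted p = 0.193), also below in 4 of 5. Ccl4 and Ccl3 pointed upwards at 0.71 ± 0.29 and 0.52 ± 0.28, as did Cx3cl1 at 1.11 ± 0.38, Cxcr6 at 0.56 ± 0.27 and Cxcr3 at 0.70 ± 0.40 (log2 ± SE), none passing. The mast cell genes summed to 628 to 1338 CPM in wild-type and 177 to 224 CPM in sash hosts, with 3 of 4 tested called lower. In AOM tumours they summed to 302 to 724 CPM in wild type and 132 to 263 CPM in sash, with 0 of 5 called. In lesions the sums were 546 to 771 CPM in wild type and 296 to 382 CPM in sash, with 1 of 3 called lower.

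**Figure D5:**
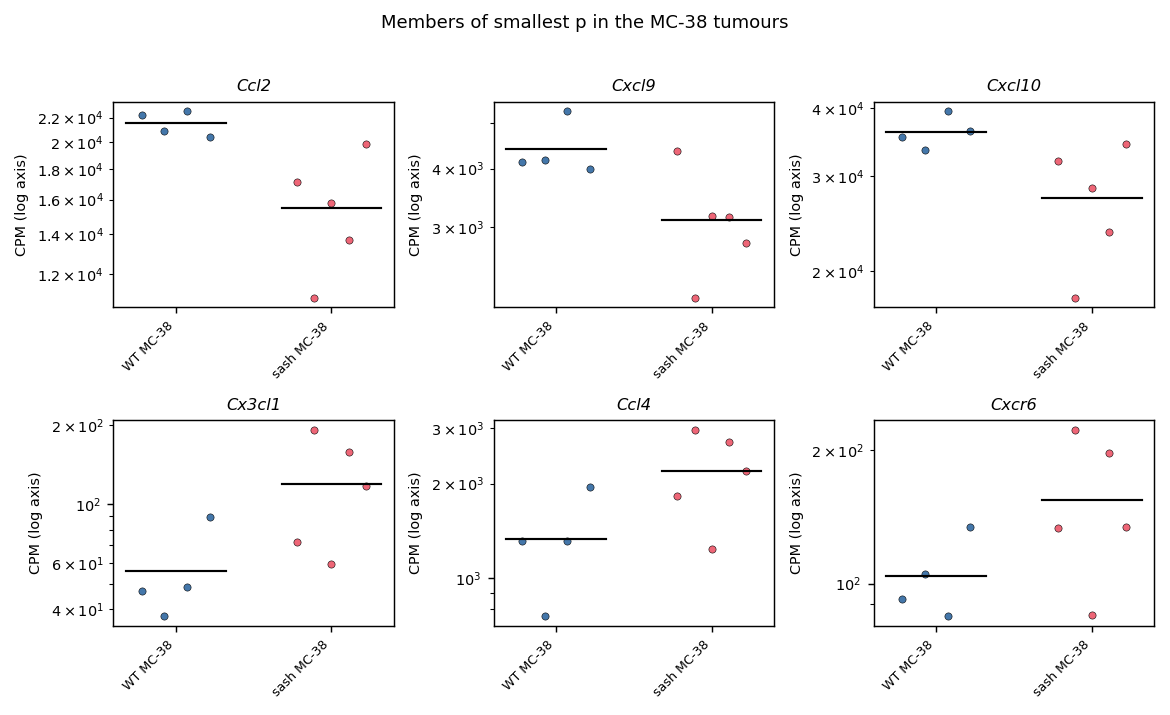
Levels of 6 members in the 9 MC-38 libraries, in CPM on log axes that do not start at 0. Points are single libraries (wild-type hosts 1, 3, 4 and 5, sash hosts 1, 2, 4, 5 and 6), bars are group means and WT stands for wild type. Ccl2 is the 1 gene of the 6 whose groups do not overlap.

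MC-38 tumours and AOM samples were scaled in separate tables, and their levels are set side by side as a description only. Cxcl10 ranged from 17853 to 39522 CPM in MC-38 tumours and from 37.2 to 740 CPM in the AOM libraries, and Ccl2 from 10935 to 22564 CPM against 46.0 to 1506 CPM. At the other end, Ccr10 was at 0 to 11.6 CPM in MC-38 tumours and 7.35 to 321 CPM in AOM libraries, and Cxcr5 at 0 to 2.99 CPM against 0 to 246 CPM. Ccl1, a CCR8 ligand, was at 34.1, 62.2, 62.3 and 16.4 CPM in wild-type hosts and 73.9, 21.6, 52.6, 46.5 and 29.1 CPM in sash hosts, against 0 to 7.09 CPM in the AOM libraries. Cxcl14 and Cxcl15 had 0 counts in all 9 MC-38 libraries.

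Cromolyn was compared in the second set of wild-type lesions, in which AOM-only animals are the shared controls of both schedules. Cxcl12 was lower when cromolyn followed AOM, and it was the only member to pass in any of the 3 contrasts. It was at 1572, 1506 and 1483 CPM with AOM only, 1232, 1029.9 and 1092 CPM with cromolyn during AOM and 786, 1008 and 1032 CPM with cromolyn after AOM. Both cromolyn groups lay wholly below the controls. They lay wholly above the wild-type lesions (347 to 745 CPM), which had the same labelled treatment as the controls. The difference was -0.71 (SE 0.13, adjusted p = 0.0258) for cromolyn after AOM, where 1 of 19 members passed beside 4.82% of all 768 genes, and -0.46 (SE 0.13, adjusted p = 0.115) for cromolyn during AOM, where 0 of 19 passed beside 0.260% of all genes. During AOM, 6 members had an unadjusted p below 0.05 (16.7% of all genes) and DESeq2 called 0. The call for cromolyn after AOM ended without any 1 of the AOM-only libraries 1 to 3 or of the cromolyn-after libraries 1 and 3 (adjusted p from 0.0552 to 0.114). It also ended in the fit over all AOM libraries (adjusted p = 0.598) and with scaling by Rpl13a (-0.56, adjusted p = 0.250). Stromal genes summed to 11054 to 12750 CPM with AOM only, 6785 to 10822 CPM with cromolyn during AOM and 7162 to 8309 CPM with cromolyn after AOM, and 0 of 3 passed. Their part in the Cxcl12 difference was not tested.

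Ccr7, the receptor that leads T cells and dendritic cells to lymphoid tissue, was at 4.67, 9.40 and 10.1 CPM with AOM only, 41.8, 24.9 and 23.7 CPM with cromolyn during AOM and 12.2, 34.3 and 59.03 CPM with cromolyn after AOM. All 6 cromolyn libraries lay above the 3 controls. The differences were 1.83 (SE 0.61, adjusted p = 0.162) and 2.05 (SE 0.59, adjusted p = 0.0729). Without cromolyn-after library 1 the latter was 2.45 with an adjusted p of 0.0386. Ccr6 and Cxcr5 were at 1.35 ± 0.55 and 1.61 ± 0.72 with cromolyn during AOM and at 1.25 ± 0.55 and 1.61 ± 0.72 with cromolyn after AOM (log2 ± SE), with overlapping groups. B cell genes summed to 120.4 to 294 CPM in controls, 387 to 1809 CPM with cromolyn during AOM and 273 to 1632 CPM with cromolyn after AOM, none passing, and their part in these values was not tested. The controls are also the group in which Ccr7 was below the wild-type lesions of the same labelled treatment. Members without overlap numbered 4 of 19 during AOM and 3 of 19 after AOM, beside 24.5% and 29.3% of all genes.

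During AOM, Ccr9, Cxcl9, Ccl4 and Ccl7 were at 0.95 ± 0.40, 0.83 ± 0.35, 0.86 ± 0.41 and 0.86 ± 0.41 (log2 ± SE). After AOM, Ccl3, Cxcl10, Cxcr6 and Ccr2 were at -0.97 ± 0.42, -0.46 ± 0.29, -0.55 ± 0.39 and -0.60 ± 0.45. None of these 8 values passed. Set directly against each other, the schedules gave 0 of 19 members, beside 0.00% of all genes, with 2 members at an unadjusted p below 0.05 (8.46% of all genes) and 0 called by DESeq2. The median difference of the members (cromolyn after minus during AOM) was -0.35, beside 0.00 for all genes, and genes read in the same libraries are not independent values. Ccr2 was at 61.6, 30.6 and 23.7 CPM with cromolyn during AOM and 18.3, 22.9 and 15.2 CPM with cromolyn after AOM, without overlap, at -1.04 (SE 0.43, adjusted p = 0.458). It was 1 of 2 such members, the other being Ccl4, beside 12.9% of all genes. Cxcl9 was at -0.95 (SE 0.35, adjusted p = 0.405), and Cxcl10, Ccl17, Ccl3, Ccl4 and Ccl2 were at -0.63 ± 0.29, -1.20 ± 0.57, -0.89 ± 0.42, -0.72 ± 0.40 and -0.63 ± 0.37 (log2 ± SE). Cxcl12 was at -0.26 (SE 0.14, adjusted p = 0.604) and turned to 0.15 with scaling by Rpl13a, which moved the median of all genes by 0.40.

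Of the 26 members, 13 were tested in every comparison, 13 were called in at least 1, and 4 (Ccl22, Ccl27b, Cxcl14 and Cxcr1) had too few counts for any test. Cxcr1, a receptor of neutrophils, had 42 counts over the 5 sash tumours (5.34, 3.31, 3.85, 10.8 and 11.9 CPM) and 9 over the 5 wild-type tumours (3.29, 2.82, 1.05, 0 and 2.36 CPM), a ratio of 3.65 with an exact 95% interval of 1.75 to 8.52 for counting error only. It had 0 counts in the sash lesions. Its pooled rate in sash tumours was 5.46-fold that of a floor of 3 counts over the sash lesions, without the counting error of the 42. Ccl1 had 22 counts in wild-type tumours and 13 in sash tumours, a ratio of sash to wild type of 0.462 (0.214 to 0.958). Cxcl15 had 32 counts in wild-type tumours and 4 in wild-type lesions, a ratio of 4.37 (1.55 to 17.0). Ccl22 had 8 counts over all 25 AOM libraries and Ccl27b 18. Ccl27b has near-identical copies in the genome, so its counts are uncertain.

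Genes around the members were read from lists. Of 8 tested NF-kappaB-side inducers of chemokines, 4 were higher in wild-type tumours than lesions (Il1a at 3.43, Il1b at 3.29, Rela at 0.85 and Nfkb1 at 0.70 on the log2 scale) and 3 in sash (Il1a at 6.11, Il1b at 4.97 and Rela at 0.56). None were lower. Of 8 tested on the interferon side, 1 was higher and 3 lower in wild type (Ifngr2 at 0.79, Irf1 at -1.13, Irf7 at -1.77 and Irf9 at -0.65) and 2 were lower in sash (Irf1 at -1.80 and Ifngr1 at -0.86). The medians of the lists were 0.78 and -0.56 in wild type and 0.60 and -0.54 in sash, beside 0.00 and 0.02 for all genes. Of 12 tested adhesion genes, which hold leukocytes to the vessel wall after a chemokine signal, 4 were higher in wild type (Selp at 2.58, Icam1 at 2.28, Itgam at 1.86 and Itgb1 at 0.95) and 9 in sash, among them Selp at 3.56, Sele at 3.50, Icam1 at 2.42 and Itgb2 at 1.92. The shares of all genes called higher were 19.5% in wild type and 23.9% in sash. Of all 848 genes, 149 were called lower in wild type and 200 in sash. Rgs16, a brake on G protein signalling, was higher in both genotypes (1.65 and 2.22), and Rgs1 was lower in sash (-1.92). Of 6 other chemoattractant and related genes, Fpr1, Fpr2, Pf4 and Ppbp were higher in both, by 4.35, 2.85, 1.76 and 4.59 in wild type. The other two, Cd74 and Dpp4, were lower in sash (-1.56 and -1.36) and did not pass in wild type (adjusted p = 0.0732 and 0.515). In lesions Irf7 was lower (-1.89) and Nfkbia higher (0.85) in sash, and with cromolyn after AOM the vascular addressin Madcam1 was higher (1.44).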

How the data were processed

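The authors deposited raw counts, 1 whole number a gene and library, in a table of 25 AOM libraries and a table of 9 MC-38 libraries. Per the labels' protocols they come from a QIAseq targeted RNA panel sequenced on a MiSeq. Per the submitters' processing notes the genome build was mm9 and DESeq2 was used. For the aligner, the counting program and molecular tags nothing is given in the sources used here. Intervals and floors cover counting error only. Each table has 993 rows, of which 5 are control entries at 0 in every library and were left out. Of 36 samples 34 were analysed. MC-38 wild-type replicate 2 and sash replicate 3 were not analysed here.

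Of the 988 genes, those kept by filterByExpr (minimum count 10, minimum total 15) were fitted together in edgeR 4.0.16 under R 4.3.3 (TMM factors, robust quasi-likelihood test) with Benjamini-Hochberg adjustment over all genes tested. Adjusted p below 0.05 counted as passing. Differences are log2 values with their standard error (SE). Genotypes were compared in fits of their 2 groups, stages in a fit of 4 groups, and cromolyn schedules in a fit of 3 groups. CPM were scaled with TMM over a table. The 10 comparisons share a family of panel genes but were adjusted 1 by 1. Fits were tested on simulated data.

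In each comparison every member that passed was named, and where fewer than 8 passed, further members in order of p up to 8 as values. Members under a mean of 10 counts in both groups appear as pooled counts with exact 95% intervals, beside the log2 value for Cxcl11 and Cxcl15. Of the 27 members 1 is not reported here, and counts are over the other 26. The members and gene lists were chosen with earlier results of these data known. Groups that share replicate numbers were checked for pairing: only wild-type and sash lesions had all 3 same-numbered pairs correlated above 0.1 in their deviations from the group means (0.154 to 0.513). The labels give no pairing, so the block is an alternative only. Alternatives were DESeq2 1.42.0, RLE factors, library totals, scaling by Rpl13a (the 1 gene of 14 housekeeping names on the panel), no low-count filter, the replicate block, a fit over all AOM libraries and leaving out each library. Leaving out wild-type tumours 2 and 4 and using the AOM-only group as reference were chosen after seeing the data. The RefSeq sequences are of GRCm38.p6, a build other than the authors', and were matched by symbol. Protein sequences were not used here. Figures were drawn with matplotlib 3.10.9.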

Additional observations from a re-analysis of the deposited data

Results flagged for a closer look

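Libraries that stood apart from the rest of their group were looked for in each member and group of 4 or 5 libraries, by the gap to the nearest library as a share of the group's range. Of 70 such groups 9 had a gap above Dixon's 95% critical value, where chance alone gives about 1 in 20, or 3.5.

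Wild-type tumour 2 was the highest of its group for Cxcr5 (109.9 CPM, the next at 2.36 CPM), Ccr6 (64.8 CPM, the next at 9.45 CPM) and Cxcr3 (29.6 CPM, the next at 10.7 CPM), and its Ms4a1 level was 249 CPM against at most 7.39 CPM in the other wild-type tumours. Wild-type tumour 5 was the highest for Ccl11 (456 CPM, the next at 83.1 CPM) and Cxcl12 (424 CPM, the next at 238 CPM). Sash tumour 2 held 4543 CPM of Ccl7, with the next sash tumour at 1618 CPM. Sash tumour 1 held 256 CPM of Cxcl9, with the next at 62.3 CPM. Among MC-38 tumours in wild-type hosts, replicate 3 was the lowest for Cxcl11 (111 CPM, the next at 170.0 CPM) and replicate 4 the highest for Cxcl9 (5294 CPM, the next at 4167 CPM).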

How the results depend on the processing

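Of 1460 alternative values of the named members, 1355 kept their direction and their side of the threshold, 67 kept the direction and lost the call, 36 gained it and 2 reversed. The reversals were Cxcl12 between the cromolyn schedules (0.15 with scaling by Rpl13a) and Cxcr5 between wild-type tumours and lesions (0.22 with the AOM-only group as reference). The cause of the shifts below was not tested, beyond the smaller number of libraries in a leave-out.

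With DESeq2 the number of members called was 3 between genotypes in tumours (among 82 genes called in all) and 3 in lesions (among 70). With scaling by Rpl13a it was 1 in lesions (among 17), 0 for cromolyn after AOM (among 10) and 3 between stages in wild type (among 125). Without the low-count filter it was 1 in lesions (among 36). In 1 fit over all AOM libraries it was 3 between genotypes in tumours (among 88). In that fit it was 0 for cromolyn after AOM, where 0 genes were called, and 2 between wild-type lesions and AOM only (among 85). With the replicate block it was 3 in lesions (among 84), where same-numbered pairs correlated although the labels give no pairing. It was also 3 between stages in wild type (among 262), where Ccl3, Ccl4 and Ccr6 lost their call (adjusted p = 0.0504, 0.106 and 0.0568). Cxcl10 lost its call between stages in sash (0.0570). The block moved no other member count by over 1.5 times. Without wild-type tumours 2 and 4 it was 1 between genotypes in tumours (among 6) and 1 for the difference of genotype effects (among 8).

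Leaving out single libraries gave 0 to 2 called members in lesions (most without wild-type lesion 3, among 68 genes) and 0 to 1 for cromolyn after AOM. Between stages it gave 2 to 7 in wild type (fewest without wild-type lesion 3, among 271 genes) and 7 to 10 in sash. Between wild-type lesions and AOM only it gave 0 to 6 (fewest without AOM-only library 1, among 11 genes). It gave 0 in the other 5 comparisons. Over all shared numbers, 12 of 23 same-numbered pairs correlated above 0.1. Scaling by Rpl13a moved the median of all genes by 0.13 between genotypes in tumours, by -0.26, 0.14 and 0.40 in the cromolyn contrasts and by -0.44 between wild-type lesions and AOM only, and library totals moved it by 0.11 for cromolyn after AOM and by 0.21 and 0.18 between stages. Depth limits members near 1 count per library, which is 0.763 to 2.37 CPM.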
